A study of Mus musculus with 24 samples.

Results

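The genes described here are 10 carriers that move bile acids, conjugated bilirubin and other organic anions, and the phospholipid partner of bile acids, across the hepatocyte and bile duct membranes. They were taken by symbol, Slc10a1, Slc10a2, Abcb11, Abcb4, Abcc2, Abcc3, Abcc4, Slco1a1, Slco1b2 and Slc51b, and all 10 were found in each of the 3 deposited tables, which list 31053, 25876 and 20729 genes. The study grew organoids from the livers of male wild-type BALB/c mice of 6 to 8 weeks of age, and no transgene or deletion was carried by any group. The hepatocyte table holds 12 libraries, 3 labelled Primary hepatocytes and 3 each of Hep-Orgs P1, P5 and P10, which are organoids at passages 1, 5 and 10 from EpCAM-negative, Percoll-purified cells grown in a medium with the Notch inhibitor DAPT and the glucocorticoid dexamethasone. The cholangiocyte table holds 9 libraries, 3 each of Cho-org-P0-M, Cho-org-P5-M and Cho-org-P10-M (Cho-Orgs P0, P5 and P10 below), which are organoids from EpCAM+ cells grown without DAPT or dexamethasone. The Smart-Seq table holds passage 0 Hep-Orgs picked by shape, with 1 library for the grape-like, 1 for the intermediate and 1 for the round-like form, and no replicate. The study describes these forms in its hepatocyte medium before DAPT and dexamethasone were added to it.

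In the liver, bile acids return from portal blood through the basolateral importers NTCP (Slc10a1) and the organic anion transporting polypeptides (Slco1a1, Slco1b2). They leave the hepatocyte into bile through the bile salt export pump (Abcb11), beside phosphatidylcholine moved by MDR3/Mdr2 (Abcb4) and conjugated bilirubin and glutathione conjugates moved by MRP2 (Abcc2). Cholangiocytes and ileal enterocytes recover bile acids through the apical carrier ASBT (Slc10a2) and pass them on through the heterodimer of OSTα (Slc51a) and OSTβ (Slc51b), and MRP3 (Abcc3) and MRP4 (Abcc4) export organic anions back to blood. The nuclear receptor FXR (Nr1h4) is the bile acid sensor, and SHP (Nr0b2) is a target of it.

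The stretches before the start sites of Abcb11 and Slco1b2 are shown because each holds a match to a loosened form of a well-known element. For Abcb11, whose promoter is a classical FXR target, and for Slco1b2 the capitals mark AGGNCA followed after 1 base by TGACCT, an inverted repeat of the receptor site (IR-1). Sequences are RefSeq's, on build GRCm38.p6, read 5′ to 3′ on the gene's strand, and 9 of the 10 members had an entry. Both strands of the 250 bases before each start were searched. The Abcb11 stretch is chr2:69342617-69342866 on the minus strand and the Slco1b2 stretch is chr6:141629268-141629517 on the plus strand. Both end at the base before the first annotated start of the gene.
Abcb11: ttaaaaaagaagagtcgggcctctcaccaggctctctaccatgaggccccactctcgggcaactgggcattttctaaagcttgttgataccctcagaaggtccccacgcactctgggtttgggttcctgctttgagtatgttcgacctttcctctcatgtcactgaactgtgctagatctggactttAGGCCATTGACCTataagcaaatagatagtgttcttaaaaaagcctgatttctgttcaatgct
Slco1b2: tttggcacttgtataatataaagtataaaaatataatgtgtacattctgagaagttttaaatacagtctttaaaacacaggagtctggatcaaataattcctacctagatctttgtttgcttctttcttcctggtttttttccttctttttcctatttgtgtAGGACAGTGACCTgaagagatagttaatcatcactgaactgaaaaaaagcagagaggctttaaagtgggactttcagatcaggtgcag

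The IR-1 letters lie 63 to 51 bases before the Abcb11 start and 88 to 76 bases before the Slco1b2 start. They were found before 11 of 32851 starts, or 0.0335%. The direct repeat DR-1, AGGTCA followed after 1 base by AGGTCA, was found before 11 starts and before none of the 9 members. These matches are descriptions of the letters and not of binding.

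Values were deposited as FPKM, fragments scaled by the length of the gene and the depth of the library. The tables were normalized separately and used different gene lengths, so levels are compared between tables only as a description. The steps of the FPKM values give back whole fragments, and a library of the hepatocyte table held 14068906 to 27160365 of them. Those of the cholangiocyte table held 37467796 to 39926192 and those of Smart-Seq 40035109 to 40375837. The libraries labelled Primary hepatocytes went against their label: Alb was 106 to 121 FPKM and the cholangiocyte keratin Krt19 averaged 237 FPKM in them. The 9 Hep-Orgs libraries showed the same, with Alb at 107 to 128 FPKM and mean Krt19 of 239 to 240 FPKM at the 3 passages. By the study's account Krt7 and Krt19 were not re-expressed in Hep-Orgs, and their staining for CK19 was negative. Pairs of libraries from different groups of that table differed by a median chi-square of 2.57 per degree of freedom, and pairs from the same group by 2.24, both above the sampling noise of 1, so no pair was counted as 1 library. The hepatocyte table is therefore described over all 12 libraries and over the 9 Hep-Orgs libraries alone.

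In Cho-Orgs a canalicular and a basolateral exporter went opposite ways over the passages. Abcc2 fell and Abcc4 rose between P0 and P5, Abcc4 rose again between P5 and P10, and Slc10a2 fell at P5 and was highest at P10. Abcb4 and Abcb11 were highest at P0. Of the 10 members, 4 reached 1 FPKM in at least 3 of the 9 libraries and were tested by limma on log2(FPKM + 1): Slc10a2, Abcc2, Abcc3 and Abcc4. Abcc2 reached that level at P0 alone, so it entered the test only through the group in which it was high. Between P0 and P5, 1 member rose, 2 fell and 1 did not pass the adjusted threshold of 0.05, where 56.6% of all 11593 tested genes passed it, 34% higher and 22.6% lower. Between P5 and P10, 2 rose and 2 did not pass (61.5% of all genes passed, 31% higher and 30.5% lower), and between P0 and P10, 3 rose and 1 fell (72.3% of all genes passed, 41% higher and 31.3% lower). The members' counts are near this background. The median log2 fold change of the 4 was -0.42 from P0 to P5, 0.36 from P5 to P10 and 0.61 from P0 to P10, against 0.06, 0.01 and 0.07 over all genes tested. These counts and medians depend on which members are tested and support no direction for the members together. From P0 to P10 with TPM, 6 members were tested, 3 higher and 3 lower, with a median of -0.61, and with no filter 3 were higher and 5 lower, with a median of -0.07. Over all genes, 3938 were higher and 2621 lower from P0 to P5, and with median-ratio size factors 3073 were higher and 3458 lower. From P0 to P10 they were 4750 and 3634, and with median-ratio size factors 4091 and 4179.

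**Figure D1:**
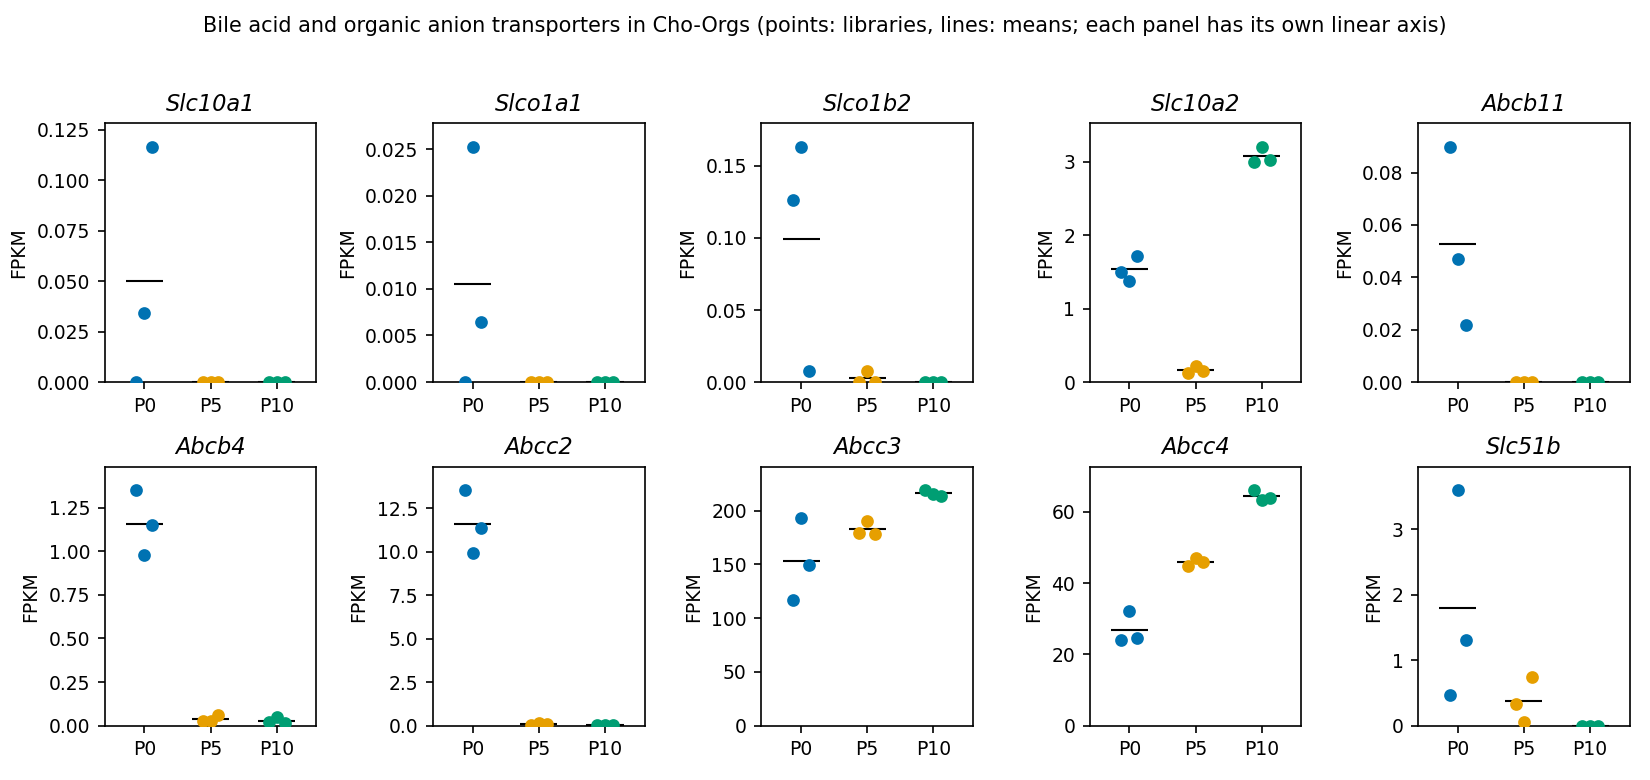
FPKM of the 10 transporters in the 9 Cho-Orgs libraries, 1 panel a gene, each with its own linear axis from 0; points are libraries of passages P0, P5 and P10 and black lines are group means. The P0 libraries of Abcc2 sit between 9.94 and 13.5 FPKM above all later ones, Abcc4 climbs to between 63.4 and 66.0 FPKM at P10, and Slc10a2 dips to between 0.117 and 0.225 FPKM at P5.

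Among the canalicular exporters, Abcc2 (chr19:43782192-43840740, plus strand, build GRCm38), which exports conjugated bilirubin, was at 13.5, 9.94 and 11.4 FPKM in the 3 P0 libraries. It was at 0.0516, 0.149 and 0.106 FPKM at P5 and at 0.0465, 0.0142 and 0.0284 FPKM at P10. No P0 library overlapped a later one. Its mean of 11.6 FPKM ± 1.80 (SD, n = 3) at P0 was 114-fold that of P5 and 391-fold that of P10. In the fit with no filter on low values, which did not choose it by its P0 level, the log2 fold change of FPKM + 1 was -3.51 ± 0.10 (SE) from P0 to P5, with a limma adjusted p of 6.67e-07. From P0 to P10 it was -3.61 ± 0.10, with a limma adjusted p of 2.43e-07 in that fit. Between P5 and P10 its difference was -0.10 ± 0.10, with an adjusted p of 0.419 by limma. With a pseudocount of 0.1 that last difference passed the threshold (-0.62, limma adjusted p = 0.0364).

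Abcb4 (chr5:8893717-8959231, plus strand), the phosphatidylcholine floppase, was at 1.35, 0.976 and 1.15 FPKM at P0, just under the level needed for the test. It was at 0.0253, 0.0251 and 0.0624 FPKM at P5 and at 0.0188, 0.0510 and 0.0128 FPKM at P10. The P0 libraries stood clear of the others, and the P5 and P10 libraries overlapped. The P0 mean was 30.8-fold the P5 mean and 42.1-fold the P10 mean. Without the filter on low values its log2 fold change was -1.05 ± 0.06 from P0 to P5, with a limma adjusted p of 1.20e-05.

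Abcb11 (chr2:69238282-69342616, minus strand), the bile salt export pump, was counted in the P0 libraries by 21, 11 and 5 fragments, or 0.0899, 0.0470 and 0.0219 FPKM. All 6 libraries of P5 and P10 were at 0, where 3 fragments would have been 0.0134 to 0.0137 FPKM in a library. With the floor of 3 fragments over the group, its mean was at least 11.8-fold lower at P5 and at least 11.7-fold lower at P10 than at P0. The stretch printed above shows the IR-1 letters before its start.

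The importers were near the counting limit in Cho-Orgs. Slco1b2 (chr6:141629518-141686646, plus strand), an uptake carrier of the hepatocyte, was counted by 17, 22 and 1 fragments at P0, by 1 fragment in 1 library at P5 and by none at P10. The ratio of the P0 to the P5 mean was 38.2, with a 95% counting interval of 5.26 to 278, and the P10 mean, with no fragment, lay at least 12.6-fold below the P0 mean. P0 replicate 3, at 0.00759 FPKM, overlapped the P5 libraries, whereas the other two were at 0.126 and 0.163 FPKM. Slc10a1 (chr12:80953183-80968705, minus strand) had 0, 3 and 10 fragments at P0, and Slco1a1 (chr6:141907282-141946962, minus strand) had 0, 4 and 1. Both were at 0 in all 6 later libraries, and both overlapped them at P0, so neither difference was resolved at this depth.

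Slc10a2 (chr8:5083219-5105351, minus strand), the apical sodium-dependent carrier that brings bile acids into the cholangiocyte, did not follow the passages in one direction. It was at 1.503, 1.372 and 1.723 FPKM at P0, at 0.117, 0.225 and 0.147 FPKM at P5 and at 3.00, 3.20 and 3.02 FPKM at P10. The 3 passages did not overlap. Its mean at P5 was 9.42-fold lower than at P0 (log2 fold change of FPKM + 1 -1.12 ± 0.08, limma adjusted p = 2.06e-06). Its mean at P10 was 18.9-fold that of P5 (1.81 ± 0.08, limma adjusted p = 1.16e-07) and 2.01-fold that of P0 (0.69 ± 0.08, limma adjusted p = 2.12e-05). The genes nearest to its profile over the 9 libraries were C730027H18Rik at a Euclidean distance of 0.42 and Gm16551 at 0.54 on the centred log2 scale, both also lowest at P5.

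The basolateral exporters were the most abundant members. Abcc3 (chr11:94343295-94392997, minus strand) had the highest level of the 10 in every Cho-Orgs library, with 117, 193 and 150 FPKM at P0, 179, 191 and 179 FPKM at P5 and 219, 216 and 213 FPKM at P10. The P0 libraries spread over the P5 values and lay below all of P10. The P10 mean was 1.41-fold that of P0 (log2 fold change 0.52 ± 0.14, limma adjusted p = 0.00748). Neither step alone passed, with limma adjusted p of 0.114 from P0 to P5 and 0.166 from P5 to P10. In a fit of the P5 and P10 libraries alone the later step did pass (0.24 ± 0.04, limma adjusted p = 2.19e-04). Without replicate 3 of each group the P10 against P0 call was lost, with a limma adjusted p of 0.0739.

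Abcc4 (chr14:118482692-118706219, minus strand) was at 24.0, 32.0 and 24.6 FPKM at P0, 44.7, 47.0 and 45.8 FPKM at P5 and 66.0, 63.4 and 63.8 FPKM at P10. The passages did not overlap. The means rose 1.70-fold from P0 to P5 (log2 fold change 0.76 ± 0.09, limma adjusted p = 1.00e-04) and 1.41-fold from P5 to P10 (0.48 ± 0.09, limma adjusted p = 0.00140). The genes whose profile over the 9 libraries lay nearest were Khdc4 and Rhbdd1 for Abcc4, at distances of 0.18 and 0.18, Rab11fip5 and Afap1 for Abcc3, at 0.27 and 0.28, and Elovl2 and Mat1a for Abcc2, at 0.25 and 0.31.

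Slc51b (chr9:65412714-65422955, minus strand), the OSTβ subunit, had 9, 70 and 25 fragments at P0, or 0.463, 3.59 and 1.31 FPKM, then 6, 1 and 14 fragments at P5 and none at P10. The P0 and P5 libraries overlapped. The P10 mean lay at least 32.9-fold below the P0 mean. Its partner Slc51a, without which the dimer does not reach the membrane, was at 0.0162, 0.373 and 0.531 FPKM at P0 and at 0 in the 3 P10 libraries. Replicate 1 was the lowest P0 library for both subunits.

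Ordered by mean level, the P0 libraries gave Abcc3, Abcc4, Abcc2, Slc51b, Slc10a2 and Abcb4, with the other four at or below 0.163 FPKM. Slc51b and Slc10a2 overlapped, and so did the 4 lowest. At P10 the order was Abcc3, Abcc4 and Slc10a2, and then Abcc2 and Abcb4, which overlapped, with the other 5 at 0.

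Marker levels of other cell types differed between the passages as well. The 10 hepatocyte markers summed to 6379 to 7175 FPKM at P0, 200 to 243 FPKM at P5 and 77.9 to 83.5 FPKM at P10, of which Hnf4a made a mean of 56.4 FPKM at P10. Mean Alb was 4994 FPKM ± 406 (SD, n = 3) in the P0 libraries, against 79.5 FPKM for P5 and 0.584 FPKM for P10. Of the hepatocyte markers Cps1, Pck1 and Asgr1 had means of 3.07, 1.16 and 0.32 FPKM at P0. The 10 cholangiocyte markers summed to 5162 to 6574 FPKM at P0 and 3411 to 3441 FPKM at P10, all 10 above 1 FPKM in every library. The 8 Kupffer cell markers summed to 42.2 to 48.3 FPKM at P0, with Clec4f and Vsig4 at 0 in every Cho-Orgs library, and to 72.1 to 77.3 FPKM at P5 and 10.1 to 10.5 FPKM at P10, with Cd68 the main part at each passage. The 6 stellate markers summed to 60.7 to 75.5 FPKM at P0, 7.40 to 8.36 FPKM at P5 and 0.161 to 0.218 FPKM at P10, of which Reln made a mean of 69.2 FPKM at P0. The part of these cell types in the transporter values was not tested. In bulk libraries, fewer cells of a type and less RNA per cell cannot be told apart.

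**Figure D2:**
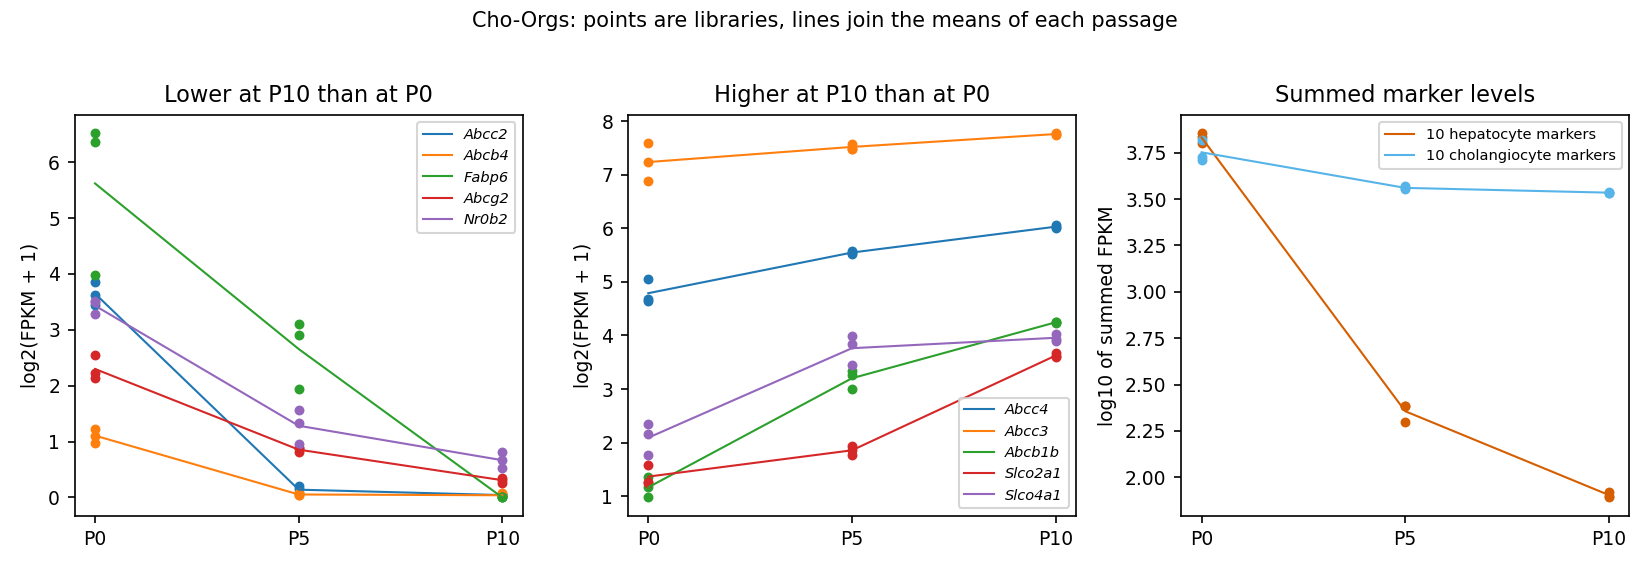
Values of transporters and Nr0b2 that were lower (left) or higher (middle) at P10 than at P0, as log2(FPKM + 1), and the log10 of summed marker FPKM (right), by passage of Cho-Orgs; points are libraries and lines join the means. The hepatocyte marker sum drops from at least 6379 FPKM at P0 to at most 83.5 FPKM at P10, while the cholangiocyte sum is never below 3411 FPKM.

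Of 18 other transporters of bile acids, organic anions and lipids, 10 were tested in Cho-Orgs. From P0 to P5, 5 rose, 3 fell and 2 did not pass (56.6% of all genes passed, 34% higher and 22.6% lower). From P5 to P10, 3 rose and 4 fell (61.5% passed, 31% higher and 30.5% lower). From P0 to P10, 5 rose and 4 fell (72.3% passed, 41% higher and 31.3% lower). The median log2 fold change of the 10 was 0.24, 0.05 and 0.66 in the 3 comparisons, against 0.06, 0.01 and 0.07 over all genes. With TPM 12 were tested, and from P0 to P10 5 were higher and 6 lower, with a median of -0.06. With no filter the 17 tested gave 5 higher and 8 lower, with a median of -0.21.

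Abcb1b, which encodes the multidrug pump Mdr1b whose activity the study probed with rhodamine 123, had the largest rise among them from P0 to P10. It was at 1.55, 1.25 and 0.965 FPKM at P0, 9.07, 8.62 and 7.02 FPKM at P5 and 17.9, 17.8 and 18.2 FPKM at P10. The mean at P10 was 14.3-fold that at P0 (log2 fold change 3.08 ± 0.11, limma adjusted p = 9.20e-09). Its close paralog Abcb1a, with which reads may be shared, was at 5.28, 7.62 and 11.5 FPKM at P0 and 10.6, 11.5 and 10.7 FPKM at P10, and did not pass over that span (0.44 ± 0.19, limma adjusted p = 0.0638). It passed from P5 to P10 (0.59 ± 0.19, limma adjusted p = 0.0244).

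Slco2a1, the prostaglandin carrier, rose from a mean of 1.59 to 11.3 FPKM between P0 and P10 (log2 fold change 2.26 ± 0.09, limma adjusted p = 2.69e-08). Slco4a1, a carrier of thyroid hormone and other organic anions, rose from 3.32 to 14.5 FPKM (1.87 ± 0.16, limma adjusted p = 3.48e-06). Abcc5, an exporter of cyclic nucleotides, rose from 14.9 to 65.0 FPKM at P5 and fell to 48.9 FPKM at P10. On the lower side, Abcg2, the breast cancer resistance protein, went from a mean of 3.96 FPKM at P0 to 0.810 at P5 and 0.239 at P10. It passed the filter through P0 alone, and with no filter its P10 against P0 difference was -1.99 ± 0.10 on the log2 scale (limma adjusted p = 3.40e-06).

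Fabp6, which binds bile acids inside ileal cells and cholangiocytes, was at 14.8, 81.0 and 90.8 FPKM at P0, at 2.85, 6.53 and 7.63 FPKM at P5 and listed at 0 in all 3 P10 libraries. Its difference on the log2(FPKM + 1) scale was -5.62 ± 0.58 from P0 to P10, with a limma adjusted p of 1.37e-05. As with Slc51a and Slc51b, its lowest P0 library was replicate 1.

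**Figure D3:**
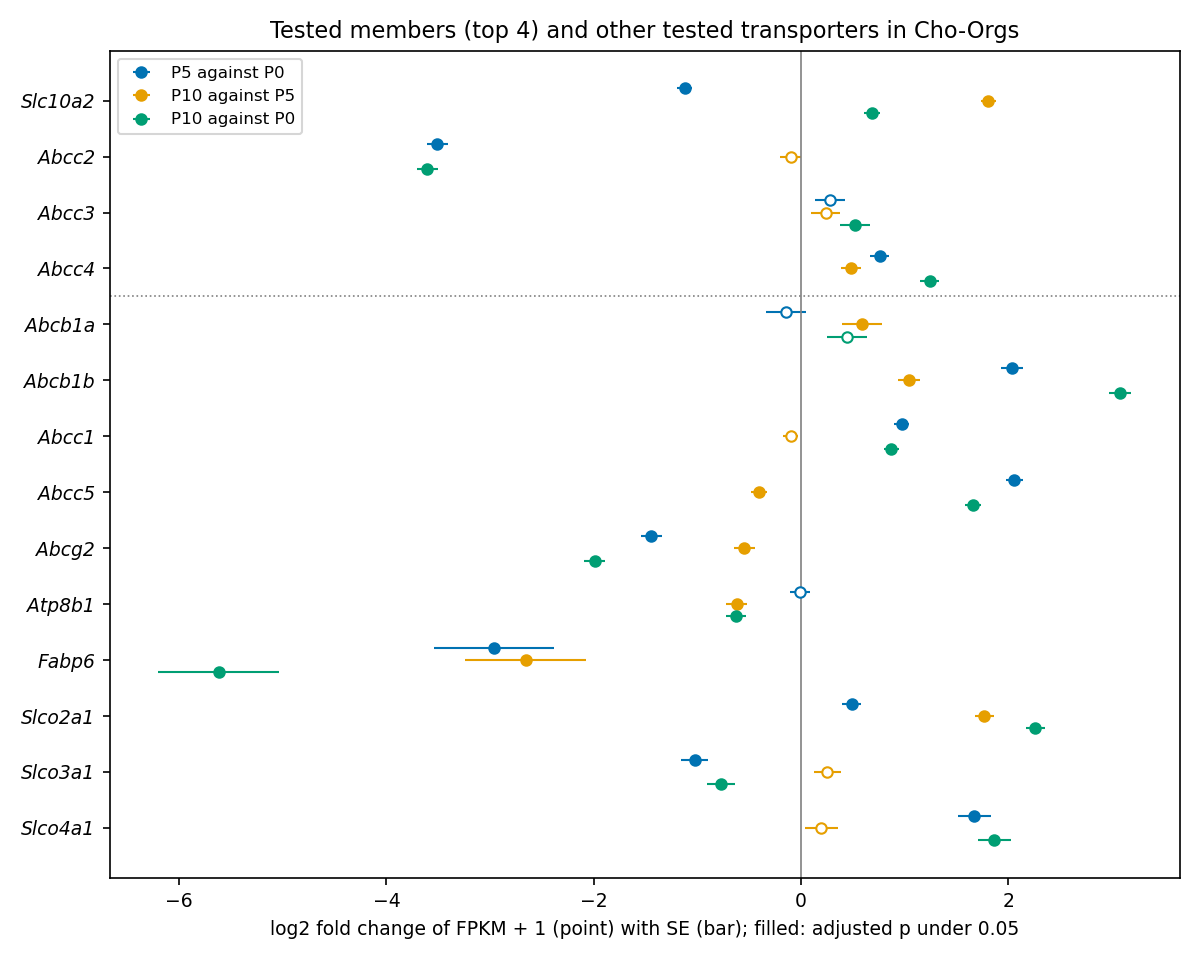
Log2 fold change of FPKM + 1 with its standard error for the 4 members tested in Cho-Orgs (above the dotted line) and the 10 other transporters tested, in the 3 comparisons of passages; filled points have a limma adjusted p under 0.05. Abcc2 lies at -3.61 and Abcc4 at 1.24 from P0 to P10, and Abcb1b at 3.08 is the farthest to the right.

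The receptors were measured in the same libraries. Of 16 receptors and regulators, 12 were tested. From P0 to P10 3 rose and 7 fell, where 72.3% of all genes passed, 41% higher and 31.3% lower. Nr1h4, which encodes FXR, was at 2.01, 3.78 and 3.67 FPKM at P0 and 1.71, 1.55 and 1.23 FPKM at P10 (log2 fold change -0.71 ± 0.16, limma adjusted p = 0.00289). Nr0b2, which encodes SHP, fell from a mean of 9.82 FPKM ± 0.911 to 0.592 ± 0.160 (SD, n = 3), and its log2 fold change with no filter was -2.77 ± 0.16 (limma adjusted p = 5.96e-06). Nr1i2, which encodes the xenobiotic receptor PXR, fell from 3.50 to 0.265 FPKM (-1.82 ± 0.08 with no filter, limma adjusted p = 1.86e-06). Nr1i2 reached 1 FPKM only at P0, and Nr0b2 passed the filter only with its P0 libraries. Vdr, the vitamin D receptor, which also senses lithocholic acid, rose from 2.16 to 5.23 FPKM (0.98 ± 0.06, limma adjusted p = 2.72e-07).

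Of 17 genes of bile acid synthesis, 8 were tested. From P0 to P10 1 rose and 4 fell, where 72.3% of all genes passed, 41% higher and 31.3% lower. Cyp7a1, the rate-limiting enzyme of the classical pathway, was listed at 0 in all 9 Cho-Orgs libraries. The one that rose was Acox2, the peroxisomal oxidase of the bile acid side chain, from a mean of 12.8 FPKM at P0 and 10.8 at P5 to 39.9 at P10 (P0 to P10 1.59 ± 0.14, limma adjusted p = 4.03e-06). Slc27a2, a very long chain acyl-CoA synthetase, had means of 3.94 and 0.00386 FPKM at P0 and P10. It passed the filter only with its P0 libraries. Of 8 genes in a list for sulfation and glucuronidation, 6 were tested. From P0 to P10 1 rose and 4 fell, against the same shares of all genes, 41% higher and 31.3% lower. The one that rose was Ephx1, an epoxide hydrolase that carries out neither reaction. Ugt2b5, a glucuronosyltransferase, was at 3.58 to 5.59 FPKM at P0 and at most 0.183 FPKM at P10. It too passed the filter only with its P0 libraries.

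In the hepatocyte table no difference of a member between the 4 groups passed a test. Abcc3, Abcc4 and Slc10a2 were the 3 members tested, and none passed in any of the 5 comparisons. By limma, the share of all 10986 genes that passed was 0.0091% for Hep-Orgs P1 and for P5 against the libraries labelled Primary hepatocytes, and 0% for P10, for all Hep-Orgs and for P10 against P1. At an unadjusted p under 0.05 the counts of genes were 911, 1184, 730, 966 and 986 in that order, and limma-voom on the recovered fragments called 30, 39, 0, 12 and 29 genes, none of them a member.

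Abcc3 was again the highest member, with a lowest, median and highest value of 135, 138 and 142 FPKM over the 12 libraries and a coefficient of variation of 1.64%. Over the 9 Hep-Orgs libraries alone it was 136 to 142 FPKM. Its log2 fold change of all Hep-Orgs against the libraries labelled Primary hepatocytes was 0.02 ± 0.01, with a limma adjusted p of 0.685, and of P10 against P1 it was -0.03 ± 0.02, with a limma adjusted p of 0.596. Abcc4 was at 11.9, 12.4 and 13.3 FPKM (lowest, median, highest), and Slc10a2 at 2.09, 2.31 and 2.78 FPKM. For P10 against P1 their log2 fold changes were 0.08 ± 0.03 and -0.03 ± 0.07, with limma adjusted p of 0.495 and 0.925.

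The hepatocyte-type carriers were low or at 0 in these libraries. Abcc2 was at 0.205 to 0.406 FPKM, from 25 to 70 fragments a library, and Slc10a1 at 0.0253 to 0.281 FPKM, from 1 to 12 fragments. Abcb4 had 1 to 9 fragments a library, at most 0.0622 FPKM, and Slc51b had 11 fragments over all 12 libraries, 6 of which were at 0. Abcb11, Slco1a1 and Slco1b2 had no fragment in any of the 12 libraries, the 3 labelled Primary hepatocytes included. For Abcb11 the limit of 3 fragments was 0.0214 to 0.0415 FPKM in a library, for Slco1a1 0.0209 to 0.0405 FPKM and for Slco1b2 0.0223 to 0.0433 FPKM. Cyp7a1 was at 0 in all 12 as well. Nr1h4 was at 15.5 to 19.1 FPKM, Nr0b2 at 1.85 to 3.29 FPKM, and Abcb1a and Abcb1b at 7.09 to 8.15 and 6.59 to 7.69 FPKM.

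The order of the members was Abcc3, Abcc4, Slc10a2 and Abcc2 in each of the 4 groups. Abcc2 and Slc10a1 overlapped at P5 and P10, and Slc51b overlapped both Slc10a1 and Abcb4 in every group. The same 3 leading genes, in this order, led Cho-Orgs P10 and the round-like Smart-Seq library. The 10 cholangiocyte markers summed to 3864 to 4082 FPKM and the 10 hepatocyte markers to 595 to 654 FPKM over the 12 libraries, with Pck1 at 0 in all 12. Their part in these levels was not tested.

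**Figure D4:**
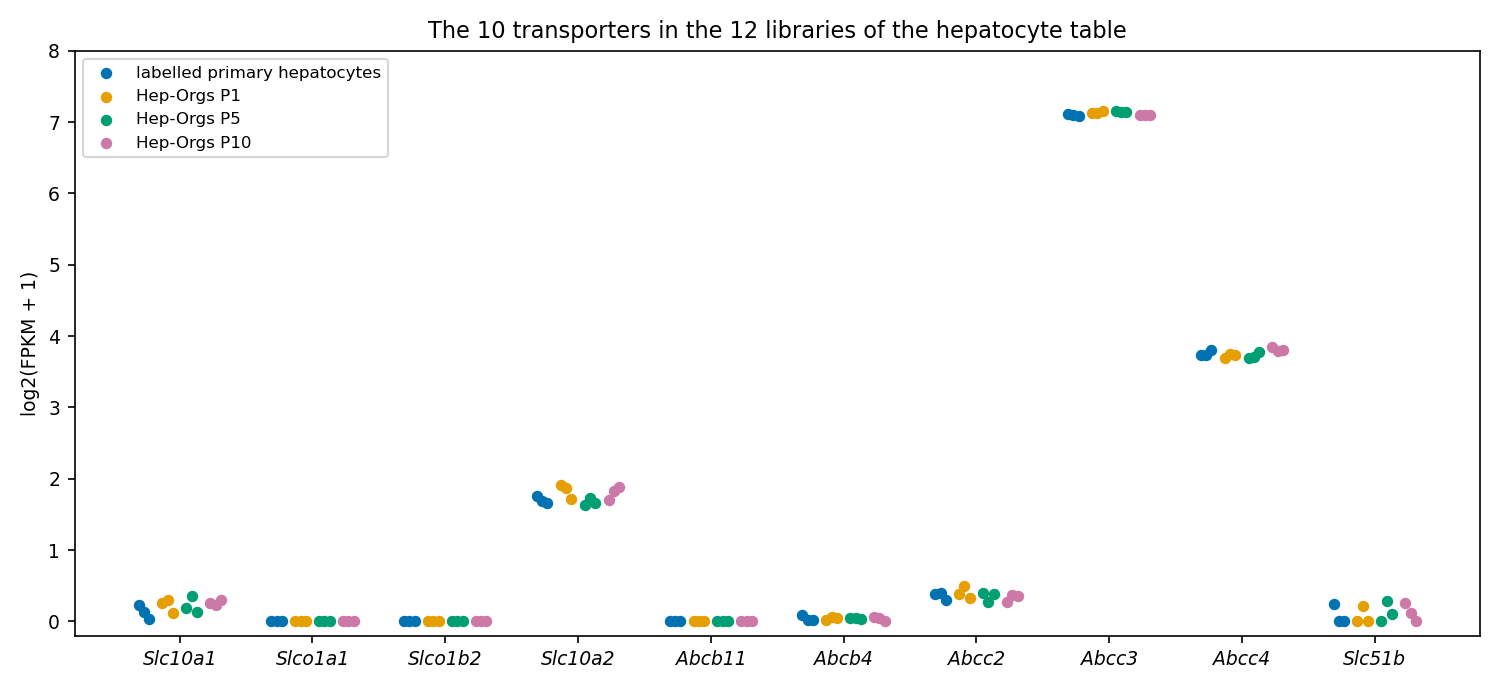
Log2(FPKM + 1) of the 10 transporters in the 12 libraries of the hepatocyte table; each point is a library, coloured by group, with 3 libraries a group. The points of the 4 groups lie close together, with Abcc3 at 135 to 142 FPKM, Abcc4 at 11.9 to 13.3 FPKM and Slc10a2 at 2.09 to 2.78 FPKM, and Abcb11, Slco1a1 and Slco1b2 at 0 throughout.

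In the Smart-Seq libraries Abcb11, Abcb4 and Slco1b2 were highest in the grape-like form. There was 1 library of each subtype, so these values have no replicate check and no test, and the intervals in brackets are exact 95% Poisson intervals that cover counting error only. Of the 10 members, 7 reached 1 FPKM in at least 1 library. Abcb11 reached it in the grape-like library alone, so it was counted only through the library in which it was high. Between the grape-like and the round-like library 4 of these were higher and 2 lower by a log2 ratio of FPKM + 1 of at least 1, a size that 21.8% of all 12595 genes reached, 12.9% higher and 8.82% lower. Between the intermediate and the round-like library 1 was higher (6.39% of all genes, 3.85% higher and 2.54% lower), and between the grape-like and the intermediate library 3 were higher and 1 lower (16.9% of all genes, 9.71% higher and 7.15% lower). The median log2 ratio of the 7 was 1.93, 0.65 and -0.45 in the 3 pairs, against -0.13, -0.12 and 0.03 over all genes. These counts and medians depend on which members are counted and support no direction for the members together. For intermediate against round-like, 485 genes were higher and 320 lower by that size, and with median-ratio size factors 605 were higher and 230 lower.

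Abcb11 was at 3.87 FPKM (3.62 to 4.13) in the grape-like library, 0.930 (0.811 to 1.06) in the intermediate one and 0.203 (0.150 to 0.270) in the round-like one, from 907, 220 and 48 fragments. Slco1b2 stepped the same way, at 4.81 (4.44 to 5.19), 1.29 (1.11 to 1.498) and 0.464 FPKM (0.356 to 0.593). Abcb4 did too, at 6.55 (6.16 to 6.95), 2.33 (2.10 to 2.57) and 0.979 FPKM (0.836 to 1.14). The grape-like level was 19.0-fold the round-like level for Abcb11, 10.4-fold for Slco1b2 and 6.68-fold for Abcb4.

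Abcc2 had another order, at 19.9 FPKM (19.3 to 20.5) in the grape-like, 36.1 (35.3 to 36.9) in the intermediate and 2.94 (2.72 to 3.17) in the round-like library. The intermediate level was 12.3-fold the round-like level. Slc10a1 was counted by 14, 24 and 1 fragments in the same order of libraries, and the grape-like level was 14.1-fold the round-like level, with a counting interval of 1.85 to 107.

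Slc10a2 ran the other way, at 1.22 (1.05 to 1.40), 2.66 (2.42 to 2.92) and 5.14 FPKM (4.80 to 5.50). The round-like level was 4.23-fold the grape-like level. Abcc4 was at 8.40 (8.11 to 8.70), 23.1 (22.7 to 23.6) and 22.7 FPKM (22.2 to 23.2), so that the intermediate and round-like intervals overlapped. Abcc3 was the highest member in each library, at 40.5, 55.6 and 35.8 FPKM, a spread of 1.56-fold at most. Slco1a1 and Slc51b had no fragment, where 3 fragments would have been 0.0187 to 0.0189 FPKM and 0.152 to 0.154 FPKM.

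Markers of other cells differed between these libraries as well. The 8 Kupffer cell and macrophage markers summed to 8711 FPKM in the grape-like library, 2575 in the intermediate and 1393 in the round-like one, all 8 above 1 FPKM in each. The 6 stellate markers summed to 746, 197 and 132 FPKM and the 6 sinusoidal endothelial markers to 61.9, 25.9 and 10.4 FPKM. The 10 hepatocyte markers summed to 5057, 8483 and 1265 FPKM and the 10 cholangiocyte markers to 879, 3468 and 2869 FPKM. Spp1 made 796, 2899 and 2107 FPKM of the cholangiocyte sums. Spp1, Cldn4 and Cftr were highest in the intermediate library, and all other cholangiocyte markers of the list in the round-like one. The part of these cells in the transporter values was not tested.

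**Figure D5:**
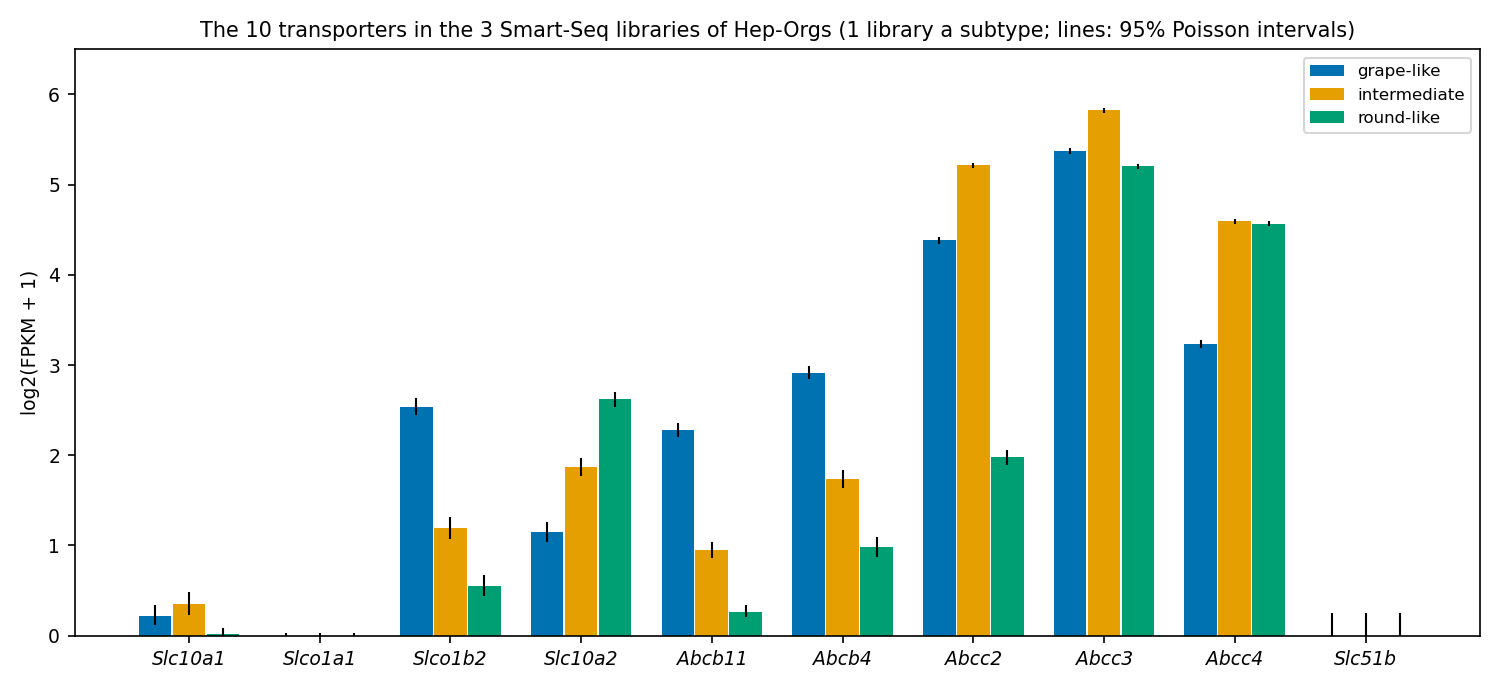
Log2(FPKM + 1) of the 10 transporters in the 3 Smart-Seq libraries (grape-like, intermediate, round-like), with no replicates; bars start at 0 and black lines are exact 95% Poisson intervals for counting error. Abcb11, Abcb4 and Slco1b2 step down from grape-like (3.87, 6.55 and 4.81 FPKM) to round-like, Slc10a2 steps up to 5.14 FPKM, and Abcc2 is highest at 36.1 FPKM in the intermediate library.

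Of the 18 other transporters, 16 were in the Smart-Seq table and 13 reached 1 FPKM. Abcg5 and Abcg8, the subunits of the canalicular sterol exporter, were at 17.1 and 11.9 FPKM in the intermediate and at 0.124 and 0.0596 FPKM in the round-like library. Abcb1a was at 2.50, 28.4 and 16.9 FPKM, from grape-like through intermediate to round-like, and Abcb1b at 3.45, 2.03 and 7.76 FPKM. Nr0b2 was at 5.42, 23.1 and 9.04 FPKM and Nr1h4 at 7.18, 9.57 and 4.39 FPKM.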

How the data were processed

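RNA was measured in 24 mouse liver libraries. The deposited values are FPKM per gene, made by the authors in 3 tables; per the labels the processing notes name featureCounts 2.0.3, edgeR 3.40.2 and build mm10. The study's methods use edgeR to scale read counts and test differential expression, and how the FPKM were computed and the aligner are not given in the sources used here. The hepatocyte and cholangiocyte libraries were poly(A)-selected. Whether the counting used strand is not stated.

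Groups came from the labels. The study's legends say that the replicate numbers mark 3 mice and its methods speak of separate cultures. Deviations of same-numbered libraries from their group means correlated by a median of -0.0063 (-0.074 to 0.12, 9 pairs) in the cholangiocyte table and -0.0016 (18 pairs) in the hepatocyte table. The replicate block changed no call of a member. The filter kept genes that reached 1 FPKM in 3 or more libraries of the table. Limma 3.58.1 in R 4.3.3 (lmFit, then eBayes with trend) gave two-sided tests on log2(FPKM + 1), 1 fit a table with all its groups, and p-values were adjusted by Benjamini-Hochberg over all genes tested. Fold changes on that scale understate those of low genes. Smart-Seq values were compared by log2 ratios of FPKM + 1.

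Whole fragments were recovered from the FPKM steps. In the hepatocyte table with its listed lengths all values (100%) came out within 0.05 of a whole number. In the other tables the length of each member was the smallest that put every value within 0.002 of a whole number. That limit was the rule of the search, so it is not a check like the first. For Slco1a1 the length rested on 2 values. Limma-voom on the recovered fragments of the hepatocyte table was an alternative. A count of 0 was read as up to 3 fragments. Intervals and floors cover counting error only. On simulated counts for the Cho-Orgs P5 against P0 comparison (10641 genes run), 100% of 200 genes changed by a log2 fold change of 1 were recovered, and 15 of 215 calls were false. On those for Hep-Orgs P1 against primary hepatocytes at a change of 0.5 (10955 genes run), 94.5% were recovered. The simulation gave every gene the same small spread between replicates and changed no gene of low mean level. Abcc3 at Cho-Orgs P0, at 153 FPKM ± 38.3 (SD, n = 3), spread more than that. The rates therefore do not carry over to low genes or to genes with a wider spread.

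The members and the 4 gene lists were chosen with earlier results of these data known, and the promoter letters after values were seen. Some results of the lists and promoters are not reported here. Named genes were the 10 members, in each list the 3 largest changes a direction past the threshold in each Cho-Orgs comparison or Smart-Seq pair, and Abcb1a, Abcb1b, Slc51a, Nr1h4, Nr0b2, Cyp7a1 and Alb. Likeness was the Euclidean distance of centred log2(FPKM + 1). Positions are GENCODE M21 (GRCm38). The alternatives were a pseudocount of 0.1, no filter, TPM in place of FPKM, the replicate block, scaling by median-ratio size factors, no trend in eBayes, only the groups compared and leaving out each replicate number. Python 3.11.15, pandas 2.3.3, NumPy 2.4.6 and matplotlib 3.10.9 were used.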

Additional observations from a re-analysis of the deposited data

Results flagged for a closer look

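The mean of Abcc3 was lower at P10 than at P5 in Hep-Orgs and higher in Cho-Orgs. It was flagged because the libraries of the 2 passages did not overlap in either kind of organoid. The share of all genes that would meet this rule was not counted. The mean was 140.5 FPKM in Hep-Orgs P5 and 136 FPKM in Hep-Orgs P10, with every P10 library below every P5 library. In Cho-Orgs the mean was 183 FPKM at P5 and 216 FPKM at P10, with every P10 library above every P5 library. The difference between the 2 kinds was not tested, since the tables were normalized separately. In Cho-Orgs the step had a limma adjusted p of 0.166 in the fit of all 3 passages, and in Hep-Orgs P10 was not fitted against P5. Groups of 3 libraries are too small for a test of single outlying libraries.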

How the results depend on the processing

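Of the members' calls in Cho-Orgs, those of Abcc4 and Slc10a2 kept their direction and their side of the threshold under every alternative run. The Abcc2 calls, P5 and P10 against P0, did so under every alternative that could test it. Leaving out any replicate number left it untested, since then fewer than 3 libraries reached 1 FPKM. Its difference from P5 to P10, not called in the main fit, passed with a pseudocount of 0.1. Abcc3 from P0 to P10 lost its call without replicate 3 (0.53, adjusted p = 0.0739) and P0 to P5 gained one without replicate 2 (0.43, adjusted p = 0.0172). From P5 to P10 Abcc3 gained a call in the fit of only the groups compared. The count of members called was 3, 2 and 4 for P5 against P0, P10 against P5 and P10 against P0. It became 5 with TPM or with no filter for P5 against P0 and 8 with no filter for P10 against P0, as more members were then tested. For P10 against P0 it was 6 with TPM and 5 with median-ratio size factors, and for P5 against P0 4 with the latter. Leaving out a replicate number gave 2 to 3, 2 and 2 to 3 members, and 4268 to 5269, 5038 to 6168 and 6546 to 7392 genes called. With the replicate block 6381, 6939 and 8278 genes were called, against 6559, 7132 and 8384, and 3, 2 and 4 members. Among Hep-Orgs comparisons 0 members were called under any alternative run. Genes called for Hep-Orgs P1 against primary hepatocytes (1) were 0 with eBayes without trend and with the replicate block, 30 with limma-voom and 0 to 3 without a replicate. Those for P5 (1) were 3 with TPM, 0 with eBayes without trend and with the replicate block, 39 with limma-voom, 4 with no filter and 0 without a replicate. With no filter P10 gave 2 and all Hep-Orgs 1, and limma-voom gave 12 for all Hep-Orgs and 29 for P10 against P1. Uncalled log2 fold changes changed sign without a replicate number: Slc10a2 in P5 against primary hepatocytes (range -0.067 to 0.025) and P10 against P1 (-0.13 to 0.061), Abcc3 in P10 against primary hepatocytes (-0.0091 to 0.00063) and Abcc4 in all Hep-Orgs (-0.015 to 0.0092). For intermediate against round-like libraries the count of members rose from 1 to 2 with TPM and to 4 with a pseudocount of 0.1, and the log2 ratio of Abcc4 became -0.033 with TPM. In Cho-Orgs and the hepatocyte table depth limits Abcb11, Slc10a1, Slco1a1, Slco1b2 and Slc51b, whose values rest on few fragments. The same holds for Abcb4 in the hepatocyte table and at Cho-Orgs P5 and P10, and for Abcc2 at Cho-Orgs P10.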
